A study of Mus musculus with 24 samples.

Results

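The effector cytokines of T cells, encoded by Ifng, Tnf, Il2, Il4, Il5, Il10, Il13, Il17a, Il21 and Csf2, were read in all 8 groups of the series. These genes were taken by name, with earlier results of these data known, and make up 10 of the 35868 genes in the data. The series asked how an excess of β-catenin changes donor T cells before and after a transplantation across a major histocompatibility barrier. Cat-Tg mice carry a human β-catenin gene that lacks its N-terminal stretch, cloned into the p1017 vector and kept heterozygous. They came from several founders crossed back to C57BL/6, and WT mice were C57BL/6 without the transgene. CD8+ or CD4+ T cells were sorted from the spleen, either of the donor mice themselves (pre-tx) or, on day 7 after transplantation, of BALB/c recipients that had been lethally irradiated (post-tx). Every recipient had also been given bone marrow from WT mice, depleted of T cells, and an equal mixture of CD4+ and CD8+ T cells of 1 genotype. Donor cells were recovered from recipients through H-2Kb, the class I molecule of C57BL/6. By the methods, mice were adult and matched for age and sex, and the labels give no age for single samples. The 8 groups thus differ in genotype, cell type and time, with 3 libraries in each and 24 in all. Transcripts of the human transgene were not measured here.

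As background, cytokines are secreted proteins through which T cells instruct other cells. IFN-γ (Ifng) is the defining product of type 1 helper cells and of cytotoxic CD8+ T cells, IL-4, IL-5 and IL-13 mark type 2 helper cells, IL-17A marks type 17 helper cells, and IL-21 is made above all by follicular helper cells. IL-2 is the growth factor that activated T cells make for themselves and their neighbours, GM-CSF (Csf2) drives myeloid cells, TNF-α (Tnf) is an inflammatory cytokine that macrophages make as well, and IL-10 restrains inflammation. Transcription of most of these genes is low in resting T cells and is turned on after the T cell receptor is engaged, through NFAT, AP-1 and NF-κB. In graft-versus-host disease, donor T cells that recognise the tissues of the recipient release several of these cytokines.

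In the mouse genome (GRCm38, GENCODE M21) the genes fall on 5 chromosomes. Il4, Il13, Il5 and Csf2 lie together on chromosome 11 within 0.6467 megabases, at chr11:53602982-54249667. Il2 and Il21 are neighbours on chromosome 3 within 0.1121 megabases, at chr3:37120523-37232636. Ifng stands alone on chromosome 10 at chr10:118441046-118445892 and Tnf on chromosome 17 at chr17:35199381-35202007. Il17a and Il10 lie on chromosome 1, at chr1:20730905-20734496 and chr1:131019845-131024974. The promoters of the 4 genes on which the CD4+ results below turn are shown as the 150 bases before the RefSeq transcription start (RefSeq, GRCm38.p6, 5′ to 3′ along the gene's strand), with matches to 4 motifs in capitals. The stretches are chr10:118440896-118441045 on the plus strand for Ifng and, on the minus strand, chr3:37125955-37126104 for Il2, chr11:53618666-53618815 for Il4 and chr3:37232637-37232786 for Il21.
Ifng: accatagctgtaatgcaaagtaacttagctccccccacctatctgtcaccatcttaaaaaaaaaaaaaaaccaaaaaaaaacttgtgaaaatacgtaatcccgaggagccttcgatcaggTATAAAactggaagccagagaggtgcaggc
Il2: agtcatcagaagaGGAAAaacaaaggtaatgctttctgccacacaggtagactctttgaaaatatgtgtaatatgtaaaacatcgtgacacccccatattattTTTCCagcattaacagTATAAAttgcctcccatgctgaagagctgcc
Il4: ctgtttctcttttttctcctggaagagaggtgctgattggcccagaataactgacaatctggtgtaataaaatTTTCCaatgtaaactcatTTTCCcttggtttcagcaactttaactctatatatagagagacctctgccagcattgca
Il21: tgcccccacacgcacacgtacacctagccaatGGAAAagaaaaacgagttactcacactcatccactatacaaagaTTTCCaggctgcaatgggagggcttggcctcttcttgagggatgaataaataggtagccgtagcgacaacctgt

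The motifs were the NFAT core GGAAA, which reads TTTCC on the other strand, the TATA box TATAAA, the AP-1 site TGANTCA and the consensus NF-κB site, which contains the NFAT core on its other strand. All were searched on both strands. The 150 bases shown for Il2, Il4 and Il21 each held 2 matches to GGAAA and Ifng held none, while Ifng and Il2 each held 1 match to TATAAA. RefSeq gives Il4 a further start, and its stretch, chr11:53617339-53617488, held no match to any of the motifs. Of the 9 members with a promoter in the table, all but Il10, 7 held GGAAA and 5 held TATAAA, and none held either of the longer motifs. Over all 32851 promoters, windows of the same length held GGAAA in 37.6%, TATAAA in 7.57%, TGANTCA in 4.24% and the NF-κB site in 0.228%. A match describes the letters of the window and not binding by a factor.

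Full-length cDNA of each sorted sample was sequenced, and the deposited estimated counts of transcripts were summed to genes. Library totals ranged from 11135713 to 50519825 estimated counts with a median of 27062440. Levels are given as CPM, counts scaled to a common library size, after TMM normalization of all 24 libraries together, as mean ± SD of 3 libraries. TMM scales libraries on the genes that change least. A library with at most 3 counts of a gene was taken to be at the floor, below which no level or fold is read, and 3 counts correspond to between 0.0594 and 0.2694 CPM of a library's total. Where all libraries of a group were at the floor, the fold against them is a lower bound, computed from the highest CPM that 3 counts make in any of its libraries. Where only some libraries of a group were at the floor, the fitted fold is given and its size is uncertain. Differences are log2 fold changes with standard errors (SE) from edgeR's quasi-likelihood test, with p-values adjusted by Benjamini-Hochberg over all genes tested, and a gene was called at an adjusted p of at most 0.05. A gene was tested where it exceeded 1 CPM in at least 3 of the 12 libraries of a cell type, or of all 24 for comparisons between the cell types. This left 4 members in CD8+ T cells (Ifng, Tnf, Il10 and Csf2) of 15975 genes, and 7 members (these with Il2, Il4 and Il21) both in CD4+ T cells, of 17243 genes, and in the fit of 24 libraries, of 19092 genes. Il5, Il13 and Il17a did not pass the filter in any fit and were tested only in the setting without a filter. A gene can pass this filter through the group in which it is high, so counts over the tested members are descriptions. By the study's methods the 3 libraries of a group came from different mice, and the p-values measure the spread between these few samples.

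The libraries labelled WT pre-tx stood apart from their labels. Cd8a made up between 50.0% and 65.4% of the sum of Cd4 and Cd8a in these 6 libraries, under either label, against 98.96% to 99.9% in the other CD8+ libraries and 0.0895% to 3.39% in the other CD4+ libraries. The 10 B cell markers summed to between 5024.61 and 7893.87 CPM in the libraries labelled WT pre-tx, against 182.7 to 610.157 CPM in the Cat-Tg pre-tx libraries. The 12 T cell markers went the other way, with 1849.77 to 3156.28 CPM against 6466.82 to 10027.1 CPM. Every comparison with the WT pre-tx groups thus sets unequal amounts of T cell RNA against each other, and the members are given below also with the summed T cell markers in place of the library size. The share of all genes called was not counted on that scale. Among post-tx CD4+ libraries the T cell sums overlapped, with 4981.21 to 6040.16 CPM in Cat-Tg and 5355.33 to 7564.7 CPM in WT. The 12 myeloid markers summed to between 5694.54 and 6681.08 CPM in Cat-Tg CD4+ post-tx libraries and to between 1004.38 and 1537.71 CPM in WT CD4+ post-tx libraries. Markers of mast cells and basophils, which make IL-4, summed to between 37.9 and 46.7 CPM in these Cat-Tg libraries and to between 30.2 and 114.6 CPM in these WT libraries. NK cell markers, of cells that make IFN-γ, summed to 28.4 to 74.6 CPM and 13.3 to 20.6 CPM, and 1 of the 6, Klra8, was at 0 in all 3 WT libraries. In bulk RNA, fewer cells of a type and less RNA per cell cannot be told apart. All Cat-Tg libraries carry one series of labels and all WT libraries another, so genotype and library series cannot be told apart either.

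Ifng and Csf2 stood highest, both in WT CD4+ T cells post-tx. Mean Ifng was 67.1 ± 9.77 CPM there, followed by WT CD8+ post-tx with 36.6 ± 20.2 CPM, Cat-Tg CD8+ post-tx with 23.99 ± 6.64 CPM and Cat-Tg CD4+ post-tx with 23.8 ± 5.65 CPM. Of the neighbours in this order, WT CD8+ overlapped with both WT CD4+ and the 2 Cat-Tg post-tx groups. The 4 pre-tx groups had Ifng means between 0.514 and 2.79 CPM. Csf2 had the same leader, with 49.1 ± 27.0 CPM in WT CD4+ post-tx, ahead of 16.8 ± 1.65 CPM in Cat-Tg CD4+, 10.003 ± 1.00 CPM in WT CD8+ and 5.61 ± 2.52 CPM in Cat-Tg CD8+, and at most 0.687 CPM pre-tx. Il4 averaged between 6.23 and 7.68 CPM in Cat-Tg CD4+ pre-tx, Cat-Tg CD4+ post-tx and WT CD4+ post-tx, and no more than 0.740 CPM in the other 5 groups, although 1 WT-labelled CD8+ pre-tx library held 1.74 CPM. Il21 averaged 20.4 ± 4.04 CPM in WT CD4+ post-tx, 12.8 ± 7.13 CPM in Cat-Tg CD4+ pre-tx and 5.64 ± 5.58 CPM in Cat-Tg CD4+ post-tx. Its mean was no more than 2.25 CPM in the other 5 groups, of which WT CD8+ post-tx owed that mean to 1 library. Tnf was the flattest, with group means between 1.52 and 11.8 CPM.

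**Figure D1:**
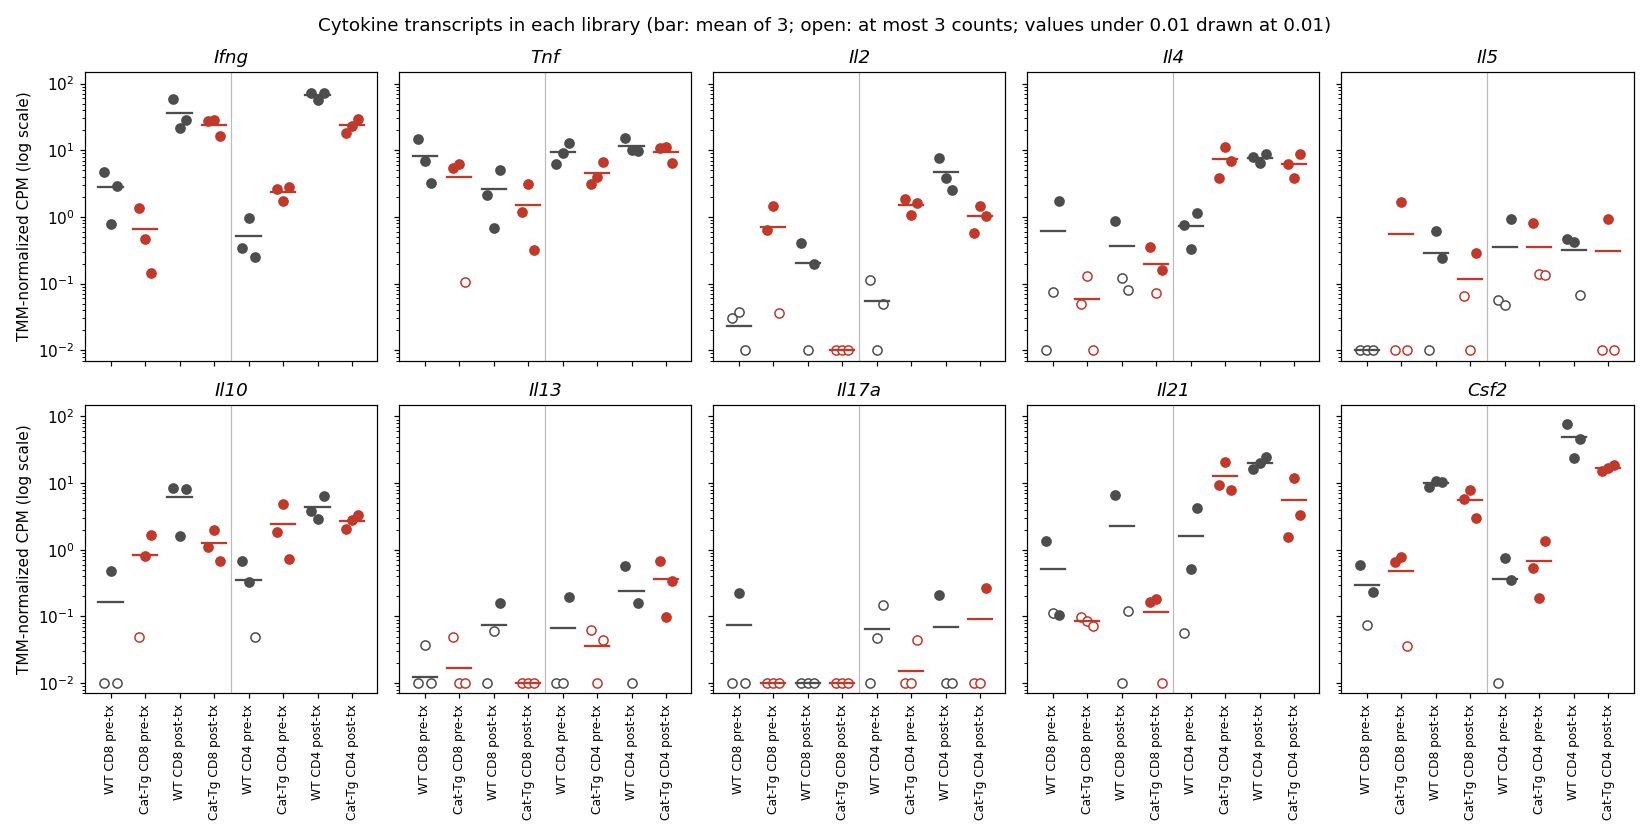
Levels of the 10 cytokine genes in the 24 libraries, as TMM-normalized CPM on a logarithmic axis, with each point 1 library and each bar the mean of the 3 libraries of a group. Ifng and Csf2 reached 73.0 and 77.6 CPM in single WT CD4+ post-tx libraries, while Il17a never exceeded 0.271 CPM.

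Levels of different genes were compared per transcript length, as deposited TPM summed over the transcripts of a gene. In WT CD4+ post-tx cells Csf2 led with 117 ± 59.8 TPM, and Ifng followed with 94.4 ± 6.77 TPM and Il4 with 30.3 ± 1.77 TPM. Cat-Tg CD4+ post-tx cells had the same order at lower TPM, with 32.3 ± 8.27 for Csf2, 27.3 ± 7.93 for Ifng and 19.1 ± 8.16 for Il4, and within 1 SD these 3 overlapped. The mixture before transplantation was different, since Il4 was first in Cat-Tg CD4+ pre-tx cells with 20.1 ± 7.37 TPM, or 56.4% of the summed TPM of the 10 genes. In CD8+ post-tx cells Ifng came first in both genotypes, with 20.9 ± 5.13 TPM in Cat-Tg and 23.4 ± 13.2 TPM in WT, ahead of Csf2 with 8.41 ± 3.66 and 10.7 ± 1.81 TPM. Tnf led in the 3 remaining groups, with 7.56 ± 5.17 TPM in WT-labelled CD8+ pre-tx libraries, 6.44 ± 2.82 TPM in those labelled WT CD4+ pre-tx and 2.15 ± 1.85 TPM in Cat-Tg CD8+ pre-tx. Il4 counts were divided among 4 transcripts, which held 37.4%, 33.9%, 22.1% and 6.61% of them, whereas 1 transcript held 87.1% of Il21 and another, with a retained intron, held 11.1%.

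**Figure D2:**
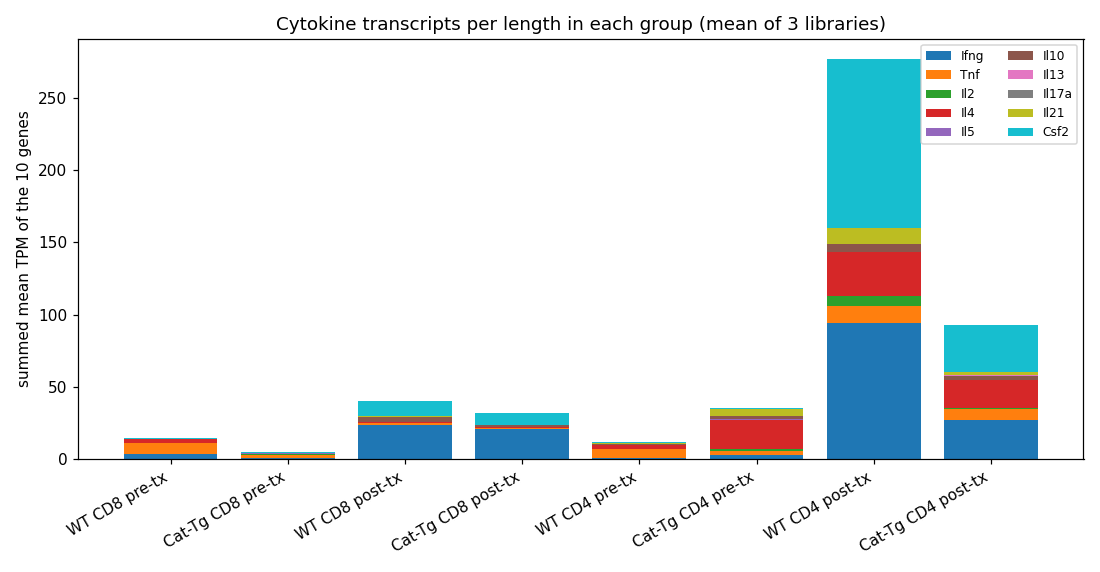
Deposited TPM of the 10 cytokine genes, averaged over the 3 libraries of each group and stacked, in TPM on a linear axis from 0. WT CD4+ post-tx cells had the tallest stack, mostly Csf2 at 117 TPM and Ifng at 94.4 TPM, and Cat-Tg CD4+ pre-tx cells were mostly Il4 at 20.1 TPM.

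In CD4+ T cells on day 7 post-tx, the Cat-Tg libraries held less Ifng than the WT libraries. Ifng was at 18.3, 23.4 and 29.6 CPM in Cat-Tg and at 72.5, 55.8 and 73.0 CPM in WT, so that the lowest WT library was well above the highest Cat-Tg library. The difference was 3.31-fold, a log2 fold change of -1.73 (SE 0.39, edgeR adjusted p = 0.0112). This was 1 of 7 members called, against 10.2% of all genes tested in either direction and 6.48% of genes called lower. The median of the 7 was -1.73, beside -0.19 over all genes tested. Myeloid markers were higher in the same Cat-Tg libraries, with 9 of 12 called, and their part in this difference was not tested. With T cell markers as the library size the log2 fold change of Ifng was -1.25 (edgeR adjusted p = 0.0666), and with all 24 libraries in one fit it was -1.50 (edgeR adjusted p = 0.196). Ifng was called in each of the 6 fits that left out 1 of the libraries compared.

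A further 3 members were separated in CD4+ post-tx cells but not called. The share of all tested genes that separate in this way was not counted here or in any other comparison. Separation of libraries is therefore description only throughout. Csf2 was at 15.1, 16.9 and 18.4 CPM in Cat-Tg and at 77.6, 23.8 and 45.9 CPM in WT, with a log2 fold change of -1.77 (SE 0.67, edgeR adjusted p = 0.107). The WT libraries spread widely among themselves, and even the lowest exceeded every Cat-Tg library. Il2 was at 0.578, 1.44 and 1.04 CPM in Cat-Tg and at 7.71, 3.83 and 2.51 CPM in WT (-2.42, SE 0.80, edgeR adjusted p = 0.0662). Il21 was at 1.54, 11.99 and 3.38 CPM in Cat-Tg and at 16.4, 20.2 and 24.5 CPM in WT (-2.05, SE 0.91, edgeR adjusted p = 0.172). Both groups of values stayed apart, although 1 Cat-Tg library held far more Il21 than the other two. At the same threshold, limma-voom called these 3 genes, with adjusted p of 0.0186 for Csf2, 0.0458 for Il2 and 0.029 for Il21. DESeq2 called Csf2 (adjusted p = 0.048) and Il2 (adjusted p = 0.0195) but not Il21. The share of all genes called by either tool was not counted.

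The remaining 3 members overlapped between the genotypes in CD4+ post-tx cells. Il4 was at 6.23 ± 2.42 CPM in Cat-Tg against 7.68 ± 1.25 CPM in WT (-0.53, SE 0.56, edgeR adjusted p = 0.626). Tnf was at 9.44 ± 2.64 and 11.8 ± 3.19 CPM (-0.55, SE 0.47, edgeR adjusted p = 0.534), and Il10 at 2.70 ± 0.640 and 4.39 ± 1.78 CPM (-0.91, SE 0.80, edgeR adjusted p = 0.548).

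**Figure D3:**
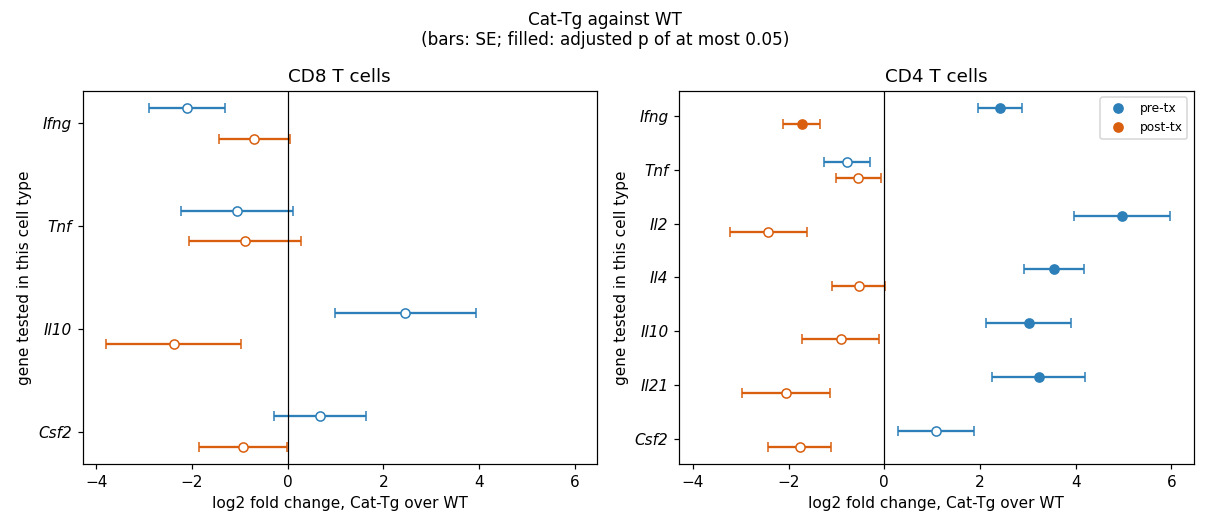
Log2 fold changes of the tested cytokine genes between Cat-Tg and WT libraries in each cell type and at each time, with bars for the SE and filled points for an adjusted p of at most 0.05. In CD4+ T cells 5 points lie above 0 pre-tx and are filled, and Ifng at -1.73 is the filled point post-tx, while no point is filled in CD8+ T cells.

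Before transplantation the direction was the opposite in CD4+ T cells. Il4 was at 3.87, 11.1 and 7.02 CPM in Cat-Tg and at 0.744, 0.332 and 1.14 CPM in WT-labelled CD4+ pre-tx libraries, 11.7-fold higher in Cat-Tg (log2 fold change 3.54, SE 0.63, edgeR adjusted p = 0.000976). Ifng was at 2.63, 1.73 and 2.79 CPM against 0.344, 0.950 and 0.249 CPM (2.42, SE 0.45, edgeR adjusted p = 0.00149). Il2 was at 1.83, 1.07 and 1.62 CPM against libraries with 2, 0 and 1 counts, at least 8.77-fold higher in Cat-Tg (edgeR adjusted p = 0.00242). In none of these genes did a Cat-Tg library fall into the range of the WT libraries. The share of all tested genes that separate in this way was not counted, so this is description only.

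Il10 and Il21 were called as well, though limma-voom did not call Il10 (adjusted p = 0.0663), and without a filter edgeR did not call Il21 (adjusted p = 0.195). Il10 was at 1.86, 4.804 and 0.720 CPM in Cat-Tg and at 0.687, 0.332 and 0.0497 CPM in WT, the last being 1 count (3.01, SE 0.89, edgeR adjusted p = 0.0248). Il21 was at 9.53, 20.9 and 7.83 CPM in Cat-Tg and at 0.0573, 0.522 and 4.23 CPM in WT, the first being 1 count (3.22, SE 0.97, edgeR adjusted p = 0.0271). Neither gene overlapped between the groups. Over the fits that left out 1 library, the log2 fold change stayed between 2.08 and 3.60 for Il10 and between 2.41 and 5.41 for Il21. Their calls were nevertheless lost in several of these fits. Without Cat-Tg replicate 2 or WT replicate 2 neither was called (edgeR adjusted p between 0.0691 and 0.146), nor Il10 without WT replicate 3 (0.0985) or Il21 without WT replicate 1 (0.0772). Csf2 was at 0.687 ± 0.598 CPM in Cat-Tg against 0.369 ± 0.380 CPM in WT (1.08, SE 0.80, edgeR adjusted p = 0.413). Tnf, the only member lower in Cat-Tg, was at 4.57 ± 1.86 and 9.28 ± 3.23 CPM with overlap (-0.78, SE 0.47, edgeR adjusted p = 0.291).

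In all, 5 of the 7 tested members were called higher in Cat-Tg CD4+ pre-tx cells and none lower, where 20.4% of all genes were called, 13.3% higher. All 12 T cell markers were called higher and all 10 B cell markers lower in the same comparison. Myeloid markers summed to 3893 ± 992 CPM in the WT-labelled libraries and 1959 ± 369 CPM in Cat-Tg, with 3 of 12 called lower. Their part in the values of Tnf was not tested. Scaled to the T cell markers, the median of all genes moved from 0.03 to -1.56 and 3 members were called, with log2 fold changes of 3.47 for Il2 (edgeR adjusted p = 0.0168), 1.86 for Il4 (edgeR adjusted p = 0.029) and, in the other direction, -2.41 for Tnf (edgeR adjusted p = 0.00138). On this scale Ifng was at 0.93 (edgeR adjusted p = 0.113), Il10 at 1.47 (0.181) and Il21 at 1.45 (0.237), and Csf2 turned to -0.43. Ifng was also not called with only the 6 libraries compared in the fit (2.21, edgeR adjusted p = 0.0902), and in one fit of all 24 libraries Il4, Il10 and Il21 were not (edgeR adjusted p of 0.0858, 0.178 and 0.195).

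Whether the difference between the genotypes in CD4+ T cells changed with time was tested as the post-tx difference minus the pre-tx difference. Such a change was called for 5 of 7 members, all negative, where 21.3% of all genes were called and 14.1% were negative. Il2 was called with a negative fitted value (edgeR adjusted p = 0.00118), whose size cannot be read because its pre-tx WT libraries were all at the floor. The difference was -4.14 for Ifng (SE 0.60, edgeR adjusted p = 0.000322) and -4.08 for Il4 (SE 0.83, edgeR adjusted p = 0.00335). It was -5.28 for Il21 (SE 1.33, edgeR adjusted p = 0.0118) and -3.92 for Il10 (SE 1.19, edgeR adjusted p = 0.0294). For Csf2 it was -2.85 (SE 1.04, edgeR adjusted p = 0.0609) and for Tnf 0.23 (SE 0.66, edgeR adjusted p = 0.817). The median over all genes was -0.55 here, and that of the 7 members was -4.08. Scaled to the T cell markers, with a median over all genes of 1.47, Ifng (-2.18, edgeR adjusted p = 0.0109) and Il2 (edgeR adjusted p = 0.00615) were called as before, whereas Il4 (-1.95), Il10 (-1.89) and Il21 (-2.98) were not, and Tnf was called at 2.35 (edgeR adjusted p = 0.0143). The call of Il10 was also lost without any 1 of 6 libraries (Cat-Tg pre-tx 2, Cat-Tg post-tx 1 and 2, WT pre-tx 2 and 3, and WT post-tx 3), with edgeR adjusted p between 0.0512 and 0.101, and Csf2 was called without Cat-Tg pre-tx 2 (0.0426) or WT pre-tx 2 (0.0304).

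In CD8+ T cells none of the 4 tested members was called between the genotypes at either time, where 8.99% of all genes were called pre-tx and 1.67% post-tx. Pre-tx, 1 of the 4 had an unadjusted p under 0.05 by edgeR, DESeq2 called 1 and limma-voom called 0. This gene was Ifng, at 1.34, 0.471 and 0.143 CPM in Cat-Tg and at 4.67, 0.786 and 2.91 CPM in WT-labelled CD8+ pre-tx libraries (-2.11, SE 0.80, edgeR adjusted p = 0.114, DESeq2 adjusted p = 0.0332). The ranges met, since 1 WT library lay below the highest Cat-Tg library. With T cell markers as the library size, which moved the median of all genes from -0.072 to -2.32, Ifng was at -4.39 (edgeR adjusted p = 0.00218) and Tnf at -3.25 (edgeR adjusted p = 0.0397), both called lower in Cat-Tg. On the TMM scale NK cell markers summed to 123 ± 63.5 CPM in these WT-labelled libraries and 36.5 ± 7.21 CPM in Cat-Tg. Myeloid markers summed to 2361 ± 871 and 1663 ± 1057 CPM, and the part of either in these differences was not tested. Il10 was at 0.836 ± 0.797 CPM in Cat-Tg against 0.162 ± 0.281 CPM in WT, where 2 libraries had 0 counts, and it was called (edgeR adjusted p = 0.0403) without WT replicate 2, the library that had 13 counts. The WT libraries left were then all at 0, so that no size is read from that fit.

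Post-tx, none of the 4 members in CD8+ T cells had an unadjusted p under 0.05 by edgeR, and DESeq2 and limma-voom called 0. Csf2 was at 5.80, 8.02 and 2.99 CPM in Cat-Tg and at 8.86, 10.7 and 10.4 CPM in WT, separated but with an SE as large as the difference (-0.93, SE 0.92, edgeR adjusted p = 0.608). Ifng was at 27.2, 28.4 and 16.4 CPM in Cat-Tg and at 59.6, 21.9 and 28.4 CPM in WT (-0.69, SE 0.74, edgeR adjusted p = 0.636). Of the WT libraries, 1 held more Ifng than the rest, and the other two lay among the Cat-Tg libraries. Il10 was at 1.11, 1.98 and 0.676 CPM against 8.53, 1.60 and 8.26 CPM (-2.38, SE 1.41, edgeR adjusted p = 0.369), and Tnf at 1.52 ± 1.41 against 2.61 ± 2.24 CPM (-0.90, SE 1.17, edgeR adjusted p = 0.704).

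Neither the change of the transgene's effect with time in CD8+ T cells nor its difference from CD4+ T cells post-tx was called for any member. Over time in CD8+ T cells, 0 of 4 were called by edgeR, DESeq2 and limma-voom, 1 had an unadjusted p under 0.05 (Il10, -4.84, SE 2.04, edgeR adjusted p = 0.146), and 10.7% of all genes were called. Il10 was called without WT pre-tx replicate 2 (edgeR adjusted p = 0.0167), which left WT pre-tx libraries at 0 counts alone, and Ifng with T cell markers as the library size (3.69, edgeR adjusted p = 0.0295). Between CD8+ and CD4+ T cells post-tx, 0 of 7 were called by the 3 tools, 0 had an unadjusted p under 0.05, and 0.629% of all genes were called. For Ifng this difference was 0.89 (SE 0.85, edgeR adjusted p = 0.743), so the lower Ifng of Cat-Tg CD4+ cells was not shown to be particular to CD4+ cells.

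Between pre-tx and post-tx, Ifng and Csf2 rose in both genotypes and both cell types, as labelled. The libraries labelled WT pre-tx did not separate Cd4 from Cd8a and were rich in B cell markers. WT folds over time thus compare libraries of unlike cell content. Under the WT CD4+ labels Ifng went from 0.514 ± 0.380 to 67.1 ± 9.77 CPM, 140.0-fold (log2 fold change 7.13, SE 0.52, edgeR adjusted p = 1.98e-07). Csf2 went from 0.369 ± 0.380 to 49.1 ± 27.0 CPM, 139.7-fold (7.13, SE 0.88, edgeR adjusted p = 3.42e-05). Its libraries labelled WT CD4+ pre-tx held 0, 16 and 7 counts, so the size of this fold is uncertain. In Cat-Tg CD4+ cells Ifng went from 2.38 ± 0.574 to 23.8 ± 5.65 CPM, 7.92-fold (2.99, SE 0.42, edgeR adjusted p = 8.22e-05), and Csf2 from 0.687 ± 0.598 to 16.8 ± 1.65 CPM, 19.4-fold (4.28, SE 0.77, edgeR adjusted p = 0.000582). Post-tx and pre-tx libraries did not overlap for either gene. With the T cell markers as the library size, these 4 were called too, with log2 fold changes between 3.66 and 5.84.

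Il2, Il4, Il10 and Il21 were called higher post-tx under the WT CD4+ labels and were not called in Cat-Tg CD4+ cells. In WT, Il2 went from libraries at the floor to 4.68 ± 2.70 CPM, at least 27.3-fold (edgeR adjusted p = 0.000346), Il4 from 0.740 ± 0.406 to 7.68 ± 1.25 CPM (3.51, SE 0.62, edgeR adjusted p = 0.000857), and Il21 from 1.60 ± 2.29 to 20.4 ± 4.04 CPM (3.80, SE 0.99, edgeR adjusted p = 0.0115). Il10 went from 0.356 ± 0.319 to 4.39 ± 1.78 CPM (3.74, SE 0.91, edgeR adjusted p = 0.00749). In Cat-Tg, Il2 was at 1.51 ± 0.389 pre-tx and 1.02 ± 0.431 CPM post-tx (-0.87, SE 0.77, edgeR adjusted p = 0.374), Il4 at 7.33 ± 3.63 and 6.23 ± 2.42 CPM (-0.57, SE 0.56, edgeR adjusted p = 0.417), Il21 at 12.8 ± 7.13 and 5.64 ± 5.58 CPM (-1.48, SE 0.90, edgeR adjusted p = 0.188) and Il10 at 2.46 ± 2.11 and 2.70 ± 0.640 CPM (-0.18, SE 0.80, edgeR adjusted p = 0.868). The Cat-Tg cells thus held these 4 transcripts pre-tx at levels that overlapped with their post-tx levels. The median of all genes was -0.38 in Cat-Tg CD4+ cells and -0.14 in WT CD4+ cells.

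Over the 7 tested members, 6 were called higher post-tx under the WT CD4+ labels and 2 in Cat-Tg CD4+ cells, and none lower. The background was 24.4% of genes called in WT (14.8% higher) and 45.2% in Cat-Tg (16.2% higher). Tnf was not called in either, at 0.49 (SE 0.47, edgeR adjusted p = 0.452) in WT and 0.72 (SE 0.47, edgeR adjusted p = 0.226) in Cat-Tg. In one fit of all 24 libraries, Il4, Il10 and Il21 lost their calls in WT (edgeR adjusted p between 0.0716 and 0.102), and scaled to the T cell markers Il21 did (2.31, edgeR adjusted p = 0.0716), while Tnf was called in Cat-Tg (1.42, edgeR adjusted p = 0.0313).

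**Figure D4:**
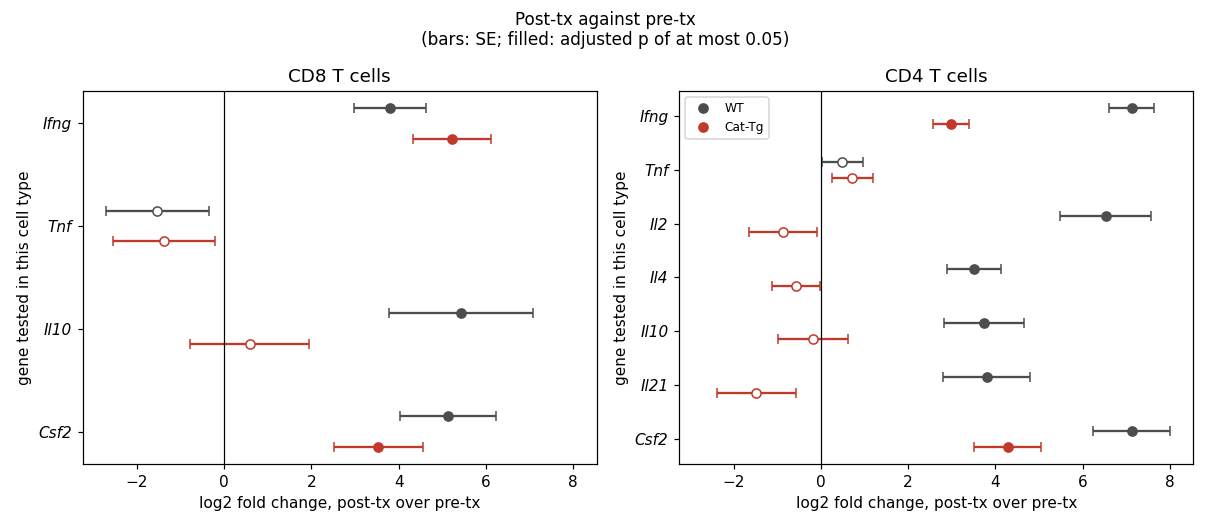
Log2 fold changes of the tested cytokine genes between post-tx and pre-tx libraries, for WT and Cat-Tg donors and for each cell type, with bars for the SE and filled points for an adjusted p of at most 0.05. In CD4+ T cells the WT point of Il4 stands at 3.51 and the Cat-Tg point at -0.57, and the WT point of Il2 is a fitted value against libraries at the floor, for which the text gives a bound of 27.3-fold.

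In CD8+ T cells 2 of 4 members were called higher post-tx in Cat-Tg, where 14.0% of all genes were called (8.73% higher), and 3 of 4 in WT, where 23.6% were called (13.2% higher). The pre-tx side of the WT values is again the libraries labelled WT CD8+ pre-tx, which did not separate Cd4 from Cd8a. Ifng rose from 0.653 ± 0.621 to 23.99 ± 6.64 CPM in Cat-Tg, 37.2-fold (5.22, SE 0.89, edgeR adjusted p = 0.00168), and from 2.79 ± 1.95 to 36.6 ± 20.2 CPM in WT, 14.0-fold (3.80, SE 0.82, edgeR adjusted p = 0.00353). Csf2 rose from 0.485 ± 0.394 to 5.61 ± 2.52 CPM in Cat-Tg (3.53, SE 1.02, edgeR adjusted p = 0.0335) and from 0.297 ± 0.260 to 10.003 ± 1.00 CPM in WT (5.14, SE 1.10, edgeR adjusted p = 0.00326). Il10 was called in WT, from 0.162 ± 0.281 to 6.13 ± 3.93 CPM (5.42, SE 1.64, edgeR adjusted p = 0.0257), and not in Cat-Tg, from 0.836 ± 0.797 to 1.25 ± 0.663 CPM (0.58, SE 1.36, edgeR adjusted p = 0.778). The WT pre-tx libraries held 0, 13 and 0 counts of Il10, so the size of its WT fold is uncertain. Tnf was lower post-tx in both genotypes without a call (-1.38 in Cat-Tg and -1.54 in WT).

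Several of the CD8+ calls over time were lost when 1 library was left out or under the other scaling. The log2 fold change of Csf2 in Cat-Tg stayed between 2.91 and 4.03 over the libraries left out. Csf2 in Cat-Tg was not called without any 1 of Cat-Tg pre-tx replicates 1, 2 and 3 or post-tx replicates 1 and 2 (edgeR adjusted p between 0.0663 and 0.101), and Il10 in WT was not called without WT pre-tx replicate 1 or 3 or WT post-tx replicate 1 or 3 (0.065 to 0.0827). Scaled to the T cell markers, Ifng was called in Cat-Tg (5.01, edgeR adjusted p = 0.00677) but not in WT (1.32, edgeR adjusted p = 0.18, beside a median of all genes of -2.83), Csf2 in neither (0.073 and 0.06), Il10 no longer in WT (2.97, edgeR adjusted p = 0.116) and Tnf in WT (-4.10, edgeR adjusted p = 0.0145).

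CD8+ and CD4+ libraries of the same genotype and time were compared in the fit of all 24 libraries, leaving out the libraries labelled WT pre-tx. By the methods CD4+ and CD8+ T cells were sorted from each mouse, so the compared libraries share mice, and the labels do not say which. With the replicate number as a block within genotype and time, Il21 was not called in Cat-Tg pre-tx (edgeR adjusted p = 0.0735) or post-tx (0.09985) and Il2 was not called in WT post-tx (0.0793), and the other calls below were made. Il4 and Il21 were lower in CD8+ cells of Cat-Tg mice at both times. Pre-tx, all 3 Cat-Tg CD8+ libraries were at the floor, with at most 3 counts of Il4 and 2 counts of Il21 in each, so that Il4 was at least 49.1-fold lower (edgeR adjusted p = 0.0106) and Il21 at least 85.5-fold lower (edgeR adjusted p = 0.0329) than in CD4+ cells. These were 2 of 7 members called, where 1.52% of all genes were called and 1.16% were lower in CD8+ cells. Il2, by contrast, was at 0.647, 1.46 and 0.0357 CPM in CD8+ and at 1.83, 1.07 and 1.62 CPM in CD4+ cells, with overlap (-1.08, SE 1.14, edgeR adjusted p = 0.923). Ifng was separated but not called (-1.89, SE 0.66, edgeR adjusted p = 0.219).

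Post-tx, 3 of 7 members were called in Cat-Tg, where 6.00% of all genes were called (4.51% lower in CD8+ cells), and 2 of 7 in WT, where 13.1% were called (7.17% lower). Il2 had 0 counts in every Cat-Tg CD8+ library and 6, 73 and 46 counts in the CD4+ libraries, at least 9.26-fold lower in CD8+ cells (edgeR adjusted p = 0.00605). In WT it was at 0.202 ± 0.203 against 4.68 ± 2.70 CPM (-4.52, SE 1.32, edgeR adjusted p = 0.0248). Il4 was at 0.198 ± 0.146 against 6.23 ± 2.42 CPM in Cat-Tg (-4.94, SE 1.29, edgeR adjusted p = 0.0203) and at 0.361 ± 0.450 against 7.68 ± 1.25 CPM in WT (-4.44, SE 1.27, edgeR adjusted p = 0.0208). The CD8+ libraries held 11, 2 and 5 counts of Il4 in Cat-Tg and 13, 2 and 2 in WT, so the sizes of these folds are uncertain. Il21 was called in Cat-Tg, at 0.115 ± 0.1005 against 5.64 ± 5.58 CPM (-5.58, SE 1.62, edgeR adjusted p = 0.0401). In WT, 1 CD8+ library held 6.63 CPM of Il21 and the other two 0 and 0.120 CPM, and the difference was not called (-3.19, SE 1.40, edgeR adjusted p = 0.146). It was called without that library, WT CD8+ replicate 1 (edgeR adjusted p = 0.00343), which left CD8+ libraries at the floor alone, and by limma-voom with all libraries (-6.15, adjusted p = 0.00219).

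Of the other members post-tx, Ifng was at 23.99 ± 6.64 CPM in Cat-Tg CD8+ and 23.8 ± 5.65 CPM in Cat-Tg CD4+ cells (0.01, SE 0.60, edgeR adjusted p = 1), a difference whose sign changed with the setting, and at 36.6 ± 20.2 against 67.1 ± 9.77 CPM in WT (-0.87, SE 0.60, edgeR adjusted p = 0.4). Tnf did not overlap between the cell types in either genotype and was not called by edgeR (-2.63, SE 0.95, edgeR adjusted p = 0.112 in Cat-Tg and -2.16, SE 0.93, edgeR adjusted p = 0.137 in WT). In Cat-Tg it was called by DESeq2 (adjusted p = 0.0231), with only the 6 libraries compared (edgeR adjusted p = 0.0377) and with T cell markers as the library size (edgeR adjusted p = 0.0228). Csf2 did not overlap either and was not called by edgeR, at -1.59 (SE 0.82, edgeR adjusted p = 0.297) in Cat-Tg and -2.29 (SE 0.84, edgeR adjusted p = 0.0736) in WT. In WT it was called by limma-voom (adjusted p = 0.00791), by DESeq2 (adjusted p = 0.0298), with T cell markers as the library size (edgeR adjusted p = 0.0287) and with only the 6 libraries compared (edgeR adjusted p = 0.0394), and the last also called it in Cat-Tg (edgeR adjusted p = 0.0325). Il10 was at -1.11 (SE 1.16, edgeR adjusted p = 0.651) and 0.48 (SE 1.14, edgeR adjusted p = 0.852). Myeloid markers, which include cells that make Tnf, were lower in CD8+ cells too, with 8 of 12 called in Cat-Tg and 10 of 12 in WT, and their part was not tested.

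Leaving out single libraries ended most of these calls between cell types. The call of Il21 pre-tx was lost without any 1 of Cat-Tg CD8+ replicates 1, 2 and 3 or CD4+ replicates 1 and 2 (edgeR adjusted p between 0.0558 and 0.159), and that of Il4 pre-tx without CD8+ replicate 1 (0.0677) or 3 (0.0773). In Cat-Tg post-tx, Il21 was lost without any 1 of CD8+ replicates 1, 2 and 3 or CD4+ replicates 2 and 3 (0.0542 to 0.159), and Il4 without CD8+ replicate 2 or 3 or CD4+ replicate 3 (0.0557 to 0.101). In WT post-tx, Il2 was lost without CD4+ replicate 1 or CD8+ replicate 2 or 3 (0.0702 to 0.102) and Il4 without CD8+ replicate 2 (0.111) or 3 (0.0834). Il2 in Cat-Tg post-tx was called in each of these fits that could test it.

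The other 3 members were at the floor in most libraries. Il17a, the marker cytokine of type 17 helper cells, was at the floor in 21 of 24 libraries and had 0 counts in 18, with 5 groups wholly at the floor. Its highest values were 12 counts in 1 Cat-Tg CD4+ post-tx library (0.271 CPM) and 12 in 1 WT CD4+ post-tx library (0.207 CPM). Il13 was at the floor in 17 libraries and in all 3 libraries of 4 groups, and Cat-Tg CD4+ post-tx was the one group in which every library was above it, with 7, 5 and 15 counts. Il5 was at the floor in 15 libraries, and in 2 groups a single library held all of it: 39 of 39 counts in Cat-Tg CD8+ pre-tx and 47 of 47 in Cat-Tg CD4+ post-tx. Il5 reached 1.67 CPM in the first of these, and no group of Il5 had all 3 libraries above the floor. Without a filter none of the 3 genes was called in any comparison (edgeR adjusted p of 0.120 or more), with 4 values at an unadjusted p under 0.05. Of these values 3 were of Il5 and 1 of Il13, between CD8+ and CD4+ cells of Cat-Tg post-tx. The mean of Il13 in Cat-Tg CD4+ post-tx cells was 3.37-fold the highest floor of the CD8+ libraries in that comparison. Against the highest floor of the Cat-Tg CD4+ pre-tx libraries the same mean was 2.65-fold. However, replicate 2 of Cat-Tg CD4+ post-tx, with 5 counts, lay at 0.0986 CPM, below both of these floors (0.110 and 0.140 CPM). No separation of Il13 is therefore read in either comparison.

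Of the tested members, Ifng was above the floor in all 24 libraries, Tnf in 23, Csf2 in 21 and Il10 in 20. Il4 and Il21 were at the floor in 8 libraries each, 1 group of each being wholly so (Cat-Tg CD8+ pre-tx). Il2 was at the floor in 11 libraries, and in 3 groups entirely: Cat-Tg CD8+ post-tx and the groups labelled WT CD8+ and WT CD4+ pre-tx.

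The 4 lists of genes around the cytokines were read in the same fits, and their counts are set beside those of the markers and of the scaling to T cell markers where these differ most. In CD4+ post-tx cells 10.2% of all genes were called between the genotypes, in either direction. Of 17 tested receptors of these cytokines, 6 were called higher in Cat-Tg there and 1 lower. They included Il4ra, a chain of the IL-4 and IL-13 receptors (log2 fold change 1.26, edgeR adjusted p = 0.00357), Csf2ra, the GM-CSF receptor chain (2.35, edgeR adjusted p = 0.00384), and Ifngr2, a chain of the IFN-γ receptor (1.87, edgeR adjusted p = 0.00537). Myeloid cells carry these receptors. The myeloid markers were higher in the same libraries, as given above, and their part in these receptor values was not tested. Of 20 interferon-γ targets tested, 1 was called, Ciita, the activator of MHC class II genes (2.14, higher in Cat-Tg, edgeR adjusted p = 0.00355), and of 20 transcription factors of cytokine genes none was called by edgeR, with 5 at an unadjusted p under 0.05, while limma-voom called 2 lower and DESeq2 0. The scaling to T cell markers gave 6 interferon-γ targets and 1 transcription factor higher and none lower, beside a median of all genes of 0.27. Of 13 other T cell cytokines, 2 were called lower in Cat-Tg, the chemokine Xcl1 (-4.27, edgeR adjusted p = 0.00428) and Il17f (-3.96, edgeR adjusted p = 0.0371).

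In CD4+ pre-tx cells, 3 of 13 other T cell cytokines were called higher in Cat-Tg and 2 lower, among them Cd40lg, the ligand through which T cells help B cells (2.65, edgeR adjusted p = 0.000245), and Fasl, a death ligand (2.58, edgeR adjusted p = 0.000897). Of 17 receptors 3 were called higher and 4 lower, and of 20 interferon-γ targets 4 higher and 2 lower. In this comparison 20.4% of all genes were called and 13.3% were called higher, so these counts are not read as particular to the lists. Il2ra, the inducible chain of the IL-2 receptor, was higher (2.66, edgeR adjusted p = 4.79e-05), and Il10ra (-1.79, edgeR adjusted p = 0.000263) and Ciita (-3.47, edgeR adjusted p = 5.13e-05) were lower, as were the B cell markers. Among 20 transcription factors 5 were called higher, with Rora (2.65, edgeR adjusted p = 4.79e-05) and Batf (2.01, edgeR adjusted p = 0.000171) at the top, and 7 lower. With the T cell markers as the library size, these lists were mostly lower in Cat-Tg, with 0 higher and 6 lower among other cytokines, 1 and 15 among receptors, 1 and 14 among transcription factors and 0 and 13 among interferon-γ targets (edgeR). The median of all genes was -1.56 on that scale, so lower values were not particular to these lists. The share of all genes called lower on it was not counted. On that scale Il2ra (1.10, edgeR adjusted p = 0.0127) and Rora (1.07, edgeR adjusted p = 0.0158) were called higher, and Cd40lg (0.0528), Fasl (0.0873) and Batf (0.123) were not called.

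In CD8+ cells pre-tx, 6 of 20 transcription factors were called lower in Cat-Tg and 1 higher, including the AP-1 subunits Jun (-4.87, edgeR adjusted p = 0.00804) and Fos (-5.50, edgeR adjusted p = 0.0115) and the NFAT gene Nfatc1 (-1.94, edgeR adjusted p = 0.00667). In the same comparison, in which 8.99% of all genes were called, all 10 B cell markers and 6 of 12 myeloid markers were called lower and 7 of 12 T cell markers higher, and their part was not tested. Scaled to the T cell markers, 19 of the 20 transcription factors were called lower in Cat-Tg, as were 17 of 17 receptors and 18 of 19 interferon-γ targets. The median log2 fold change of all genes was -2.32 on that scale, so lower values were not particular to these lists. The share of all genes called lower on it was not counted. Post-tx on the TMM scale, 1.67% of all genes were called. Of the 20 transcription factors 3 were called higher there and none lower: Nfatc2 (3.01, edgeR adjusted p = 0.00439), Gata3, the factor of type 2 cells (2.49, edgeR adjusted p = 0.0119), and Nfatc1 (1.69, edgeR adjusted p = 0.0446). The change of the genotype difference with time, which rests on the same WT pre-tx libraries, was called for Nfatc2 (3.82, edgeR adjusted p = 0.000614) and Nfatc1 (3.63, edgeR adjusted p = 0.00102), and the post-tx difference between the genotypes was larger in CD8+ than in CD4+ cells for both, by 2.78 (edgeR adjusted p = 0.00874) and 1.92 (edgeR adjusted p = 0.0341). Of 17 receptors 5 were called lower pre-tx and none post-tx (edgeR, with 4 at an unadjusted p under 0.05, while limma-voom called 2 and DESeq2 1 higher), and of 11 other cytokines Xcl1 was the one called post-tx (-3.77, edgeR adjusted p = 0.0169). Of 19 interferon-γ targets 1 was called in each direction pre-tx and post-tx.

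From pre-tx to post-tx on the TMM scale, Tbx21, which encodes T-bet, the factor of type 1 cells, was higher in all 4 comparisons, by 4.44 in Cat-Tg CD8+ (edgeR adjusted p = 0.000161), 2.96 in WT CD8+ (edgeR adjusted p = 0.000799), 3.13 in Cat-Tg CD4+ (edgeR adjusted p = 2.55e-07) and 2.34 in WT CD4+ cells (edgeR adjusted p = 2.01e-06). With the T cell markers as the library size it was called higher in 3 of the 4 and not in WT CD8+ cells (0.10, edgeR adjusted p = 0.822). Interferon-γ targets were called higher for 13 of 20 in Cat-Tg CD4+ cells and 10 of 20 in WT CD4+ cells (1 lower), where 16.2% and 14.8% of all genes were called higher. They were called higher for 3 of 19 and lower for 2 in each genotype of CD8+ cells, where 8.73% (Cat-Tg) and 13.2% (WT) of all genes were called higher. The change over time was not tested between the cell types. Post-tx, 0 of 20 targets were called higher and 7 lower in CD8+ than in CD4+ cells of Cat-Tg, where 4.51% of all genes were lower. In WT 2 were higher and 9 lower, where 7.17% of all genes were lower. Over time, myeloid markers were called higher for 9 of 12 and lower for 1 in Cat-Tg CD4+ cells, and their part was not tested. Of the transcription factors, 13 of 20 were higher in Cat-Tg CD4+ (1 lower), 10 in WT CD4+, 10 in Cat-Tg CD8+ and 2 in WT CD8+ cells (5 lower). Receptors were called higher and lower for 9 and 3 of 17 in Cat-Tg CD4+, 5 and 6 in WT CD4+, 6 and 3 in Cat-Tg CD8+ and 1 and 7 in WT CD8+ cells. Scaled to the T cell markers, interferon-γ targets were higher and lower for 17 and 0 in Cat-Tg CD4+ but 1 and 6 in WT CD4+, and transcription factors for 16 and 0 but 6 and 7. In WT CD8+ cells on that scale 16 interferon-γ targets, 15 transcription factors and 15 receptors were called lower. The median of all genes on it was 0.30 in Cat-Tg CD4+, -1.47 in WT CD4+ and -2.83 in WT CD8+ cells. Lower values in WT were thus not particular to these lists, and the share of all genes called on that scale was not counted. Gbp7, a guanylate-binding protein that interferon-γ induces, was higher by 2.25 in Cat-Tg CD4+ (edgeR adjusted p = 2.07e-05) and by 3.46 in WT CD4+ cells (edgeR adjusted p = 5.26e-07), and the difference of its Cat-Tg effect between the times was -1.21 (edgeR adjusted p = 0.0257), or 0.85 without a call scaled to the T cell markers (edgeR adjusted p = 0.0954).

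Across the 24 libraries, the genes whose log2 CPM ran most like each member were described by Pearson's r, with no test, since libraries of a group share their condition. Ifng ran most like genes of cell division, Cenpe (r = 0.934), Prc1 (r = 0.933) and Mki67 (r = 0.932), and Csf2 most like Ifng (r = 0.924), Ccl1 (r = 0.893) and Gm46223 (r = 0.889). Il4 and Il21 had each other among their 3 closest genes (r = 0.812), beside Maf (r = 0.887) and Sostdc1 (r = 0.857) for Il4 and Sostdc1 (r = 0.844) and Jak2 (r = 0.820) for Il21. Tnf ran most like Tlr13 (r = 0.781), Nuak2 (r = 0.768) and Clec7a (r = 0.757), of which Tlr13 and Clec7a encode receptors of myeloid cells. Il2 ran most like 2 T cell receptor segments, Trav21-dv12 (r = 0.851) and Trbv23 (r = 0.792), and Ncoa7 (r = 0.776), and Il10 like Mgarp (r = 0.780), Batf (r = 0.773) and Gm20498 (r = 0.773). Within the cytokines Ifng and Tnf were nearly unrelated (r = 0.0932).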

How the data were processed

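RNA of sorted CD4+ and CD8+ T cells (24 libraries, 8 groups of 3) was made into cDNA with SMART-Seq HT and libraries with Nextera XT. The authors quantified transcripts with Kallisto 0.46.2; the release of its index was not given in the sources used here, and the submitters' processing notes also name mm9 and limma. The authors deposited estimated counts and TPM for 117497 transcripts of each library. Of these, 116428 were matched by identifier to GENCODE M21 and summed to 35868 genes, and between 99.6% and 99.8% of a library's estimated counts lay in matched transcripts. The deposited TPM values were summed in the same way and used only to compare genes with each other. Estimated counts were rounded to whole numbers. Library totals ranged from 11135713 to 50519825, which puts 3 counts at 0.0594 to 0.2694 CPM; floors cover counting error only.

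Counts were tested with edgeR 4.0.16 (R 4.3.3; TMM, robust quasi-likelihood fit) for genes above 1 CPM in at least 3 libraries, with Benjamini-Hochberg adjustment over all genes tested. One fit of the 12 libraries of a cell type gave the comparisons of genotype and time and their interaction, and one fit of all 24 gave those between cell types, 14 comparisons in all. Comparisons that share a group share its libraries, so their values are given side by side only. No pair of libraries was a duplicate (highest r 0.964, with 22569 genes of unequal count). Alternatives were DESeq2 size factors, DESeq2 1.42.0, limma-voom (limma 3.58.1), other filters, counts scaled from TPM by length, fold thresholds, the replicate number as a block, other sets of libraries in the fit and leaving out each library. After seeing the data, the summed T cell markers as library size and a block within genotype and time were added. Scripts were tested on simulated data.

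The members and all lists were chosen with earlier results of these data known. Named genes were every member and, per list and comparison, at most the 3 called genes with the smallest adjusted p, and for each member the 3 genes most alike across libraries. The lists were other T cell cytokines (16 genes), receptors of the cytokines (18), transcription factors of cytokine genes (20), interferon-γ targets (21) and markers of B cells, T cells, myeloid cells, mast cells and basophils, and NK cells. Promoter sequences were read from RefSeq for 9 members.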

Additional observations from a re-analysis of the deposited data

Results flagged for a closer look

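The difference between Cat-Tg and WT CD4+ T cells was not the same post-tx as pre-tx for 5 cytokine genes, by the test of that change itself (edgeR's quasi-likelihood test, Benjamini-Hochberg adjusted p of at most 0.05). On the log2 scale, the post-tx difference minus the pre-tx difference was -4.14 for Ifng, -7.39 for Il2, -4.08 for Il4, -3.92 for Il10 and -5.28 for Il21. The value of Il2 is a fitted one and gives no size, since its libraries labelled WT CD4+ pre-tx held 2, 0 and 1 counts. The libraries labelled WT CD4+ pre-tx, which enter each of these values, held 6497.51 to 7893.87 CPM of B cell markers against 421.224 to 610.157 CPM in Cat-Tg CD4+ pre-tx. The part of this in the change was not tested beyond the scaling to T cell markers, under which Ifng and Il2 were called and the other 3 were not.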

How the results depend on the processing

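Counts of members called moved by more than 1.5 times, or to or from 0, under these settings. With T cell markers as the library size, the counts were 2 (genotype, CD8+ pre-tx), 3 (genotype, CD4+ pre-tx), 0 (genotype, CD4+ post-tx), 1 (time, Cat-Tg CD8+), 1 (time, WT CD8+), 1 (change of the genotype difference with time, CD8+) and 3 (the same, CD4+). This scaling was chosen after seeing the data and moved the median of all genes, from -0.23 to -2.83 over time in WT CD8+. With all 24 libraries in one fit they were 2 (genotype, CD8+ pre-tx), 2 (CD4+ pre-tx), 0 (CD4+ post-tx) and 3 (time, WT CD4+), and with only the 6 libraries compared 3 (CD4+ pre-tx) and 2 (CD4+ post-tx). With no filter they were 1 (genotype, CD8+ pre-tx), 1 (CD8+ against CD4+, Cat-Tg pre-tx) and 3 (change with time, CD4+), where more genes were tested. DESeq2 gave 1 (CD8+ pre-tx) and 3 (CD4+ post-tx), limma-voom 4 (CD4+ post-tx) and 4 (CD8+ against CD4+, WT post-tx), and a log2 fold change of at least 2 gave 0 (CD4+ post-tx). The share of all genes called was counted for the main fits only, so the counts under these settings have no background beside them. The cause was not tested.

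Leaving out single libraries gave 0 to 1 members for the CD8+ genotype difference pre-tx, 0 post-tx, 3 to 5 for CD4+ pre-tx and 1 post-tx. For time it gave 1 to 2 in Cat-Tg CD8+, 2 to 3 in WT CD8+, 2 in Cat-Tg CD4+ and 6 in WT CD4+. Between cell types it gave 0 to 2 in Cat-Tg pre-tx, 1 to 3 in Cat-Tg post-tx and 0 to 3 in WT post-tx, and for the change with time 0 to 1 in CD8+ and 4 to 5 in CD4+.

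Same-numbered libraries did not deviate together in every pair (lowest r -0.229), and the labels do not tie numbers to mice, so the numbers were not taken as pairs. The replicate block gave 5 members for CD4+ pre-tx and 1 post-tx and changed no count of calls. A replicate block within genotype and time, added because CD4+ and CD8+ cells came from the same mice, gave 1 member between cell types in Cat-Tg pre-tx, 2 in Cat-Tg post-tx and 1 in WT post-tx.

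Uncalled values changed sign as follows. Tnf, change with time in CD8+, was -0.47 with the replicate block and -0.28, -0.83, -0.62 and -0.16 without Cat-Tg pre-tx 3, Cat-Tg post-tx 2, WT pre-tx 1 or WT post-tx 2, within a range of -0.83 to 1.26 over the libraries left out. Il10 over time in Cat-Tg CD4+ was 0.046 with DESeq2 size factors, 0.19 with no filter, 0.27 with limma-voom, 0.047 with DESeq2, 0.019 with the replicate block, 0.56 with T cell scaling, 0.74 without pre-tx 2 (libraries left out, -0.63 to 0.74) and 0.14 in the fit of 24. Ifng, CD8+ against CD4+ in Cat-Tg post-tx, was -0.015 with at least 10 counts in 3 libraries, -0.071 with limma-voom, -0.053 with the replicate block, -0.89 with T cell scaling, -0.088 and -0.0058 without CD8+ or CD4+ replicate 1 (libraries left out, -0.088 to 0.30) and -0.047 with 6 libraries. T cell scaling gave Csf2 -1.50 (genotype, CD8+ pre-tx), 0.74 (its change, CD8+) and -0.43 (genotype, CD4+ pre-tx), Il4 0.14 (time, Cat-Tg CD4+), Tnf -0.93 (time, WT CD4+) and Il10 -0.071 (cell types, WT post-tx). For the difference between cell types in the genotype effect, limma-voom gave 0.12 for Il4 and 0.24 for Il21, leaving out WT CD8+ post-tx 1 gave 1.26 and 2.50 (ranges -1.23 to 1.26 and -3.28 to 2.50), and leaving out WT CD8+ post-tx 3 gave 0.48 for Tnf (range -1.50 to 0.48). Single libraries left out also gave 0.17 (Tnf, genotype, CD8+ post-tx, WT 3; range -1.88 to 0.17), -0.012 (Il10, time, Cat-Tg CD8+, pre-tx 1; range -0.012 to 1.42) and, for cell types in Cat-Tg pre-tx, 0.31 and 0.14 (Tnf, CD8+ 3 or CD4+ 3; range -0.73 to 0.31) and 0.36 (Csf2, CD4+ 3; range -1.08 to 0.36).

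Il5, Il13 and Il17a lay at or under 3 counts in most libraries, and the part of depth in this was not tested.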
